A study of Mus musculus with 4 samples.

Results

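The genes of 7 inhibitory receptors (Pdcd1, Ctla4, Lag3, Havcr2, Tigit, Cd160 and Btla) and of Tox, a nuclear factor of exhausted T cells, were followed in cultured mouse T cells. They were taken by gene symbol from the array's platform annotation, as 8 of the 19505 genes measured, and each had 1 probe set, so splice forms could not be told apart. Total RNA came from cells named Tc1, grown under a Tc1 cytokine condition, and cells named Tc9, grown under a Tc9 cytokine condition, with 2 Affymetrix arrays per group, numbered 1 and 2 in each. The sources used here do not give the mouse strain, the age and source of the cells, the cytokines or the culture time. They do not say either whether replicates were separate cultures, so the p-values measure the spread between these arrays, which may be technical. The stated question was how gene expression differs between the groups. By convention a Tc1 cell is an interferon gamma producing CD8 T cell, and a Tc9 cell one that produces interleukin 9.

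Inhibitory receptors are surface proteins that T cells put up after activation and that damp signals from the antigen receptor when their ligands are engaged. PD-1 (from Pdcd1), TIGIT and BTLA carry tyrosine motifs in the cell that recruit phosphatases, CTLA-4 competes with CD28 for CD80 and CD86, LAG-3 binds MHC class II, and TIM-3 (from Havcr2) binds galectin-9 among other ligands. They appear briefly on any stimulated CD8 T cell and together, for long, on exhausted cells, where TOX sustains the program. A receptor transcript alone therefore does not tell an exhausted cell from a recently stimulated one.

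None of the 8 members passed the test between Tc9 and Tc1 (limma, Benjamini-Hochberg adjusted p under 0.05), against 0.564% of all genes tested. Before adjustment, at p under 0.05, 2 were higher in Tc9 (Pdcd1 and Lag3), against 2.94% of all genes, and 1 was lower (Ctla4), against 2.34%. Both Tc9 arrays lay above both Tc1 arrays for 4 members (Pdcd1, Lag3, Tigit and Tox), where 14.0% of all genes did, and below both for 1 (Ctla4), where 15.1% did. Among the 6354 genes above background on all 4 arrays, a class that holds 7 of the members, the share with Tc9 above was 17.4%. Tc9 lay below for 1270 of these 6354 genes. At unadjusted p under 0.05, 342 of them were higher and 267 lower. A positive difference within both numbers was found for 6 members, against 30.1% of all genes, and a negative one for Ctla4 and Btla, against 32.0%. Of the 6354 genes above background, 2139 had a positive and 2610 a negative one. The median log2 difference of the members was 0.31 (0.24 and 0.39 within the arrays numbered 1 and 2), beside -0.003 over all genes. The differences were at most 1.47-fold on the log2(intensity + 16) scale, which is used for every difference and understates those of dim genes.

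The promoters of the 3 receptors whose Tc1 and Tc9 signals did not overlap, and for which a promoter was listed, are shown. They are Pdcd1, Tigit and Ctla4, and none of their differences passed the test. The promoters are from RefSeq on build GRCm38.p6 and run from 250 bases before to 50 bases after the start. Of the 8 members, 6 had a listed promoter, and Lag3 and Tox, whose signals did not overlap either, had none. Each is written 5′ to 3′ on the gene's strand, and capitals mark matches to the NFAT core GGAAA on either strand. Pdcd1 lies at chr1:94052504-94052803 on the minus strand, Tigit at chr16:43664135-43664434 on the minus strand and Ctla4 at chr1:60908775-60909074 on the plus strand.
Pdcd1: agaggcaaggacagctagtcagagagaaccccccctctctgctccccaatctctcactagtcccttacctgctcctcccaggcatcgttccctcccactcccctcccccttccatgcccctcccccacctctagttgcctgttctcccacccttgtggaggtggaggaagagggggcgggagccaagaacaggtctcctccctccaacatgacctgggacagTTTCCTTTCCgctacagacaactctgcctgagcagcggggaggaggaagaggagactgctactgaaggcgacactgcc
Tigit: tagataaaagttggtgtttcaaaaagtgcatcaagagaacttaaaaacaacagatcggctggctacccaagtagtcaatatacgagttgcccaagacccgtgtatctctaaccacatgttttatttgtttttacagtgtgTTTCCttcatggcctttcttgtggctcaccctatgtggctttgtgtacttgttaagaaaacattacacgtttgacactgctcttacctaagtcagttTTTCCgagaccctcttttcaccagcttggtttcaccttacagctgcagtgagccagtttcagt
Ctla4: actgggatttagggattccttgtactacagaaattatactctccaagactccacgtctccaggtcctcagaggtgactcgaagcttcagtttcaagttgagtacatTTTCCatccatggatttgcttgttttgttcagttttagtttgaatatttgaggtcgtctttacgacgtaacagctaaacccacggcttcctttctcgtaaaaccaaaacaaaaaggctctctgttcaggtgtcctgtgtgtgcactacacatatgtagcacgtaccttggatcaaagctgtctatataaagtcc

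NFAT is a factor that the antigen receptor activates through calcium. The Pdcd1 window held 2 matches to its core, 28 and 23 bases before the start, and the Tigit window 2, at 110 and 13 bases before it. The Ctla4 window held 1, at 144 bases before the start. At least 1 match was present in 61.3% of all 32851 promoters of this length, so its presence does not set these genes apart. The median promoter held 1 match, and 9.4% of promoters held 3 or more. The share with 2 or more, to set beside Pdcd1 and Tigit, was not worked out. The T-box core AGGTGT, the kind of site that T-bet and EOMES bind, matched once, in the Ctla4 window at 18 bases before the start, and in 13.7% of all promoters. The AP-1 site TGANTCA matched in none of the 3 windows and in 7.81% of all promoters, and the STAT site TTCNNNGAA in none of the 3 and in 8.30%. All 4 motifs were searched on both strands, and no match to another motif overlapped an NFAT match in the 3 windows. Of the windows not shown, that of Havcr2 held 1 AP-1 match and that of Btla no match to any motif. A Cd160 window held 1 NFAT and 1 STAT match, and its other window none. These matches describe letters and not binding, and a link to the differences was not tested.

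Deposited intensities differed between the numbers, with medians of 37.1 and 37.9 on the arrays numbered 1 and 57.3 and 57.1 on those numbered 2, and their written digits differed too. Each number holds 1 Tc1 and 1 Tc9 array, and the sample titles name no batch. A number was read as a processing batch from these medians and digits only. Such a batch cannot be told apart from a difference between cultures. Values below are quantile normalized intensities, and a difference within each number is given beside the pooled one. Within a number, quantile normalized and deposited differences of a member were at most 0.076 apart. Background was set as the 95th percentile of 5222 negative control probe sets, at 123 to 218 in deposited intensity. Whether a gene lay above it was decided array by array on deposited intensities. The quantile normalized values given here are on another scale and cannot be set against these limits. The 6 markers listed for CD8 T cells (Cd8a, Cd8b1, Cd3d, Cd3e, Cd3g and Cd247) lay above it on all 4 arrays. They summed to 18711 and 19365 in Tc1 and 19773 and 20166 in Tc9. These sums join genes that went both ways, and 0 of the 6 passed limma. Cd8a (means 4954 in Tc1 and 4725 in Tc9) and Cd8b1 (3297 and 2727) were lower in Tc9. Cd3d was higher (1064 and 1554, log2 difference 0.54), as were Cd3e, Cd3g and Cd247 by less. Of the CD4 T cell markers the 3 measured (Cd4, Cd40lg and Zbtb7b) lay below it, at sums of 159 to 172 in Tc1 and 150 to 197 in Tc9. So did all 6 myeloid markers (sums of 192 and 197 in Tc1, 214 and 263 in Tc9), 4 NK cell and 4 mast cell and basophil markers, and 3 of 4 B cell markers (131 and 212 in Tc1, 167 and 246 in Tc9, with Cd79b above background on 1 array). A part of these low signals in the values of the members was not tested. In such bulk RNA, fewer cells of a type and less RNA per cell cannot be told apart.

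**Figure D1:**
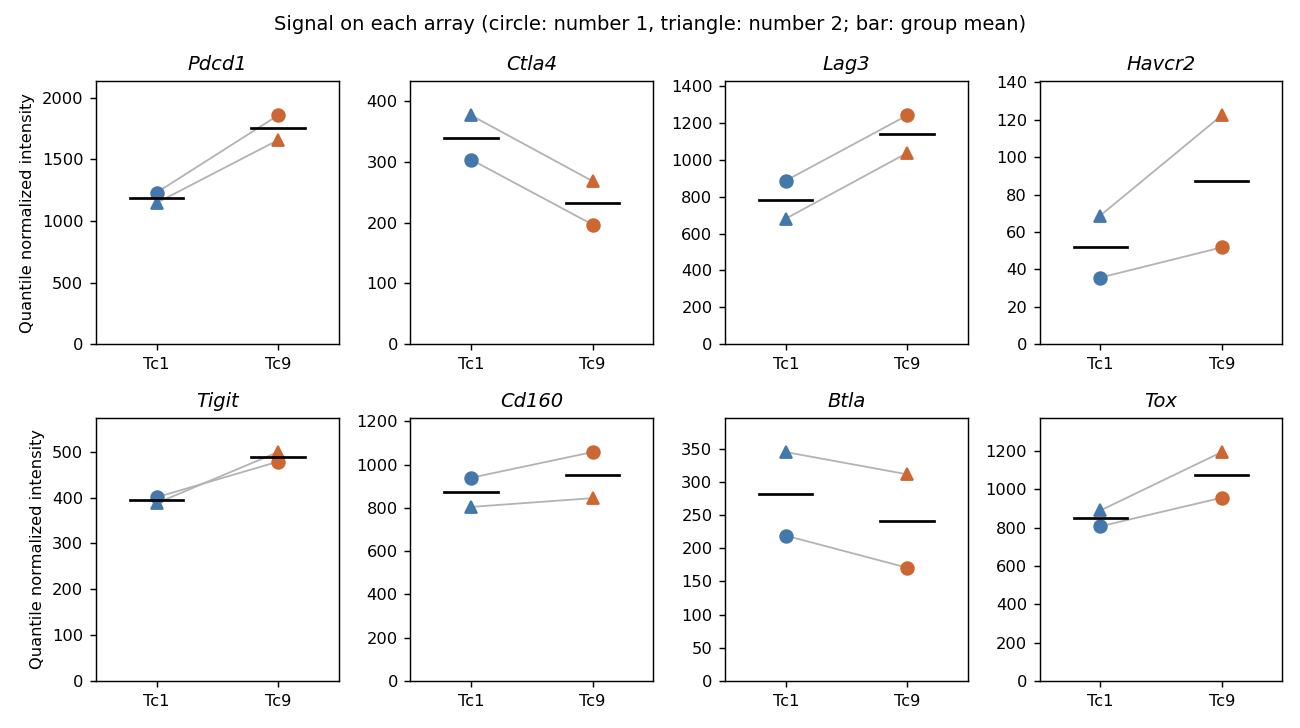
Quantile normalized intensity (y axis, linear from 0) of each member on the Tc1 and Tc9 arrays; circles are arrays numbered 1, triangles those numbered 2, grey lines join arrays of a number and black bars are group means. Pdcd1, Lag3, Tigit and Tox have both Tc9 points above both Tc1 points, Ctla4 has both below, and in Havcr2, Cd160 and Btla the groups overlap.

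Pdcd1 encodes PD-1, the receptor for PD-L1 and PD-L2. Its signal was 1229 and 1146 on the Tc1 arrays numbered 1 and 2, and 1856 and 1655 on the Tc9 arrays. Both Tc9 values were above both Tc1 values, and the group means were 1188 ± 59.1 and 1756 ± 142 (SD, n = 2). The log2 difference was 0.56 ± 0.13 (SE; 95% interval 0.25 to 0.87; 0.59 and 0.52 within the numbers), a fold of 1.47, and it missed the threshold (limma adjusted p = 0.236). It had the smallest p among the members, at rank 316 of all genes. With its SE a log2 difference of 0.89 would have been needed to pass. The array numbered 2 was below that numbered 1 by 0.10 in Tc1 and by 0.16 in Tc9, so the gap between groups was wider than either gap within a group.

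Lag3 encodes LAG-3, a relative of CD4 that binds MHC class II. It measured 887 and 681 in Tc1, and 1241 and 1037 in Tc9. The groups did not overlap, with means of 784 ± 146 and 1139 ± 144, but the arrays numbered 1 were the higher of each group, so the highest Tc1 and the lowest Tc9 array were close. The log2 difference was 0.54 ± 0.18 (95% interval 0.12 to 0.96; limma adjusted p = 0.605), with 0.48 and 0.60 within the numbers. It was 1.45-fold, and a log2 difference of 1.20 would have been needed to pass.

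Ctla4, encoding the CD28 relative that takes up CD80 and CD86, went the other way. It measured 303 and 376 in Tc1, and 197 and 268 in Tc9. Both Tc9 arrays were below both Tc1 arrays, and the means were 340 ± 51.5 and 232 ± 50.5. The log2 difference of -0.53 ± 0.22 (95% interval -1.05 to -0.004; limma adjusted p = 0.941; -0.59 and -0.47 within the numbers) was close in size to those of Pdcd1 and Lag3. The arrays numbered 2 were higher by 0.30 in Tc1 and 0.42 in Tc9, gaps not far below that between the groups. On the chromosome Ctla4 lies between Cd28 and Icos, which encode its costimulatory relatives and had log2 differences of -0.19 (limma adjusted p = 1.00; means 3372 and 2963) and 0.08 (adjusted p = 1.00; 2197 and 2319).

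**Figure D2:**
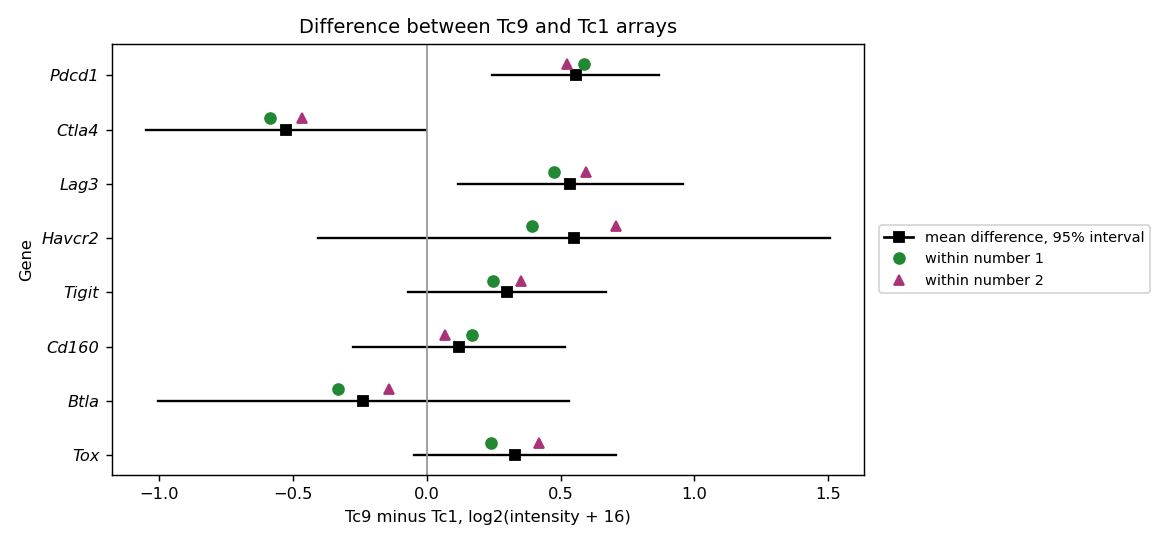
Tc9 minus Tc1 on the log2(intensity + 16) scale (x axis) for each member: black squares with 95% intervals of the limma fit over 4 arrays, green circles for the arrays numbered 1 and purple triangles for those numbered 2. Both points lie right of 0 in 6 members and left of it in Ctla4 and Btla, and the intervals of Pdcd1, Lag3 and Ctla4 leave out 0 before adjustment.

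Tigit encodes a receptor for PVR and nectin-2 that opposes the activating receptor CD226. It measured 401 and 388 in Tc1, and 478 and 499 in Tc9. The arrays of a group lay close together, at means of 394 ± 9.14 and 489 ± 14.8, with no overlap. The log2 difference was 0.30 ± 0.16 (95% interval -0.07 to 0.67; limma adjusted p = 1.00; 0.25 and 0.35 within the numbers). The SE is larger than the gaps between its own arrays (-0.05 in Tc1 and 0.06 in Tc9), because limma draws the spread of each gene toward that of genes of like intensity.

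Tox encodes a high-mobility-group nuclear factor that is needed for exhausted CD8 T cells to persist and that promotes expression of Pdcd1 and other receptors. It measured 807 and 890 in Tc1, and 956 and 1195 in Tc9. The groups did not overlap, with means of 849 ± 58.4 and 1076 ± 169, and the Tc9 array numbered 2 stood highest. The log2 difference was 0.33 ± 0.16 (95% interval -0.05 to 0.71; limma adjusted p = 1.00; 0.24 and 0.42 within the numbers), a fold of 1.26.

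The relatives of Tox had small positive differences that did not pass. Tox4, expressed in most tissues, measured 1749 and 1903 on average in Tc1 and Tc9 (log2 difference 0.12, limma adjusted p = 1.00). Tox2, which acts with Tox in exhausted cells, measured 119 and 150 (0.31, adjusted p = 1.00), and Tox3 measured 24.8 and 36.5 (0.38, adjusted p = 1.00). Tox2 and Tox3 lay below the negative control percentile on all 4 arrays, where a difference cannot be measured reliably.

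Havcr2 encodes TIM-3, a receptor of terminally differentiated and exhausted T cells. Its signal was 35.6 and 68.8 in Tc1, and 51.8 and 122 in Tc9. It was below the negative control percentile on all 4 arrays, with 72.5% and 85.1% of the negative controls lying under it in Tc1 and 82.8% and 93.6% in Tc9. The array numbered 2 was higher than that numbered 1 by 0.72 in Tc1 and 1.03 in Tc9, and the groups overlapped. The log2 difference of 0.55 ± 0.41 (95% interval -0.41 to 1.51; limma adjusted p = 1.00; 0.39 and 0.71 within the numbers) ran from 0.03 without the Tc9 array numbered 2 to 1.06 without the Tc9 array numbered 1. It was 0.19 without the Tc1 array numbered 1 and 0.91 without that numbered 2. The level of Havcr2 could not be measured reliably on these arrays.

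Cd160 and Btla encode receptors that share the ligand HVEM. Cd160 measured 939 and 804 in Tc1, and 1058 and 845 in Tc9. Its groups overlapped, at means of 872 ± 95.3 and 951 ± 151, with a log2 difference of 0.12 ± 0.17 (95% interval -0.28 to 0.51; limma adjusted p = 1.00; 0.17 and 0.07 within the numbers). Btla measured 219 and 345 in Tc1, and 171 and 311 in Tc9. Its groups overlapped too, since the arrays numbered 2 exceeded those numbered 1 by 0.62 in Tc1 and 0.81 in Tc9. The log2 difference of Btla was -0.24 ± 0.33 (95% interval -1.004 to 0.531; limma adjusted p = 1.00; -0.33 and -0.14 within the numbers). The sign of neither was stable to leaving out an array. Cd160 was at -0.04 without the Tc9 array numbered 1. Btla was at 0.17 without that array and 0.07 without the Tc1 array numbered 2. Btla neighbours Cd200, the gene of a surface ligand that inhibits myeloid cells, named outside the rule for named genes, which measured 295 in Tc1 and 185 in Tc9 (-0.63, adjusted p = 0.562).

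**Figure D3:**
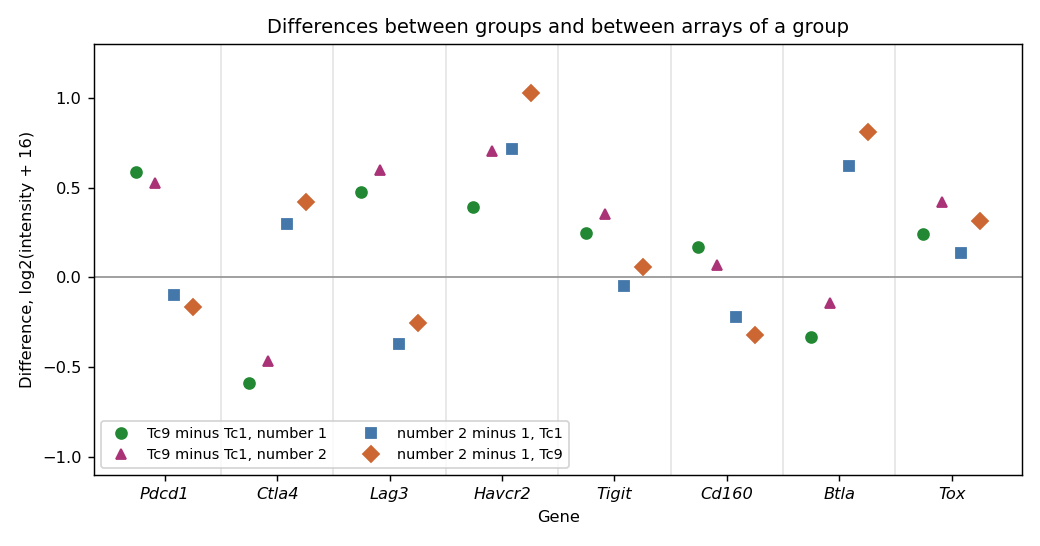
Differences on the log2(intensity + 16) scale (y axis) for each member: Tc9 minus Tc1 within the arrays numbered 1 (green circles) and 2 (purple triangles), and array 2 minus array 1 within Tc1 (blue squares) and Tc9 (orange diamonds). In Havcr2, Cd160 and Btla both gaps between arrays of a group are wider than either gap between groups, in Pdcd1, Ctla4, Lag3 and Tigit both are narrower than either, and in Tox they are mixed.

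With the number as a block, which takes the gap between the arrays numbered 1 and 2 out of the spread, 5 members were called higher in Tc9 and 1 lower, against 6.34% and 7.37% of all genes. The higher ones were Pdcd1 (limma adjusted p = 1.25e-15), Lag3 (6.20e-11), Tox (0.000216), Havcr2 (0.0126) and Tigit (0.0212), and the lower one was Ctla4 (0.000115). Cd160 (0.389) and Btla (0.220) did not pass. The block leaves each difference as it was and has 1 residual degree of freedom, and the fit gave every gene of like intensity the same spread (infinite prior degrees of freedom), so these p-values rest on other genes. Without the intensity trend 4 remained past the threshold, Pdcd1 (0.00741), Lag3 (0.00981), Ctla4 (0.0108) and Havcr2 (0.0140), and 7.31% of all genes did. For genes above background on all 4 arrays the blocked share called higher was 13.1%, and 1010 of these 6354 genes were called lower.

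The ligands of these receptors were read in the same cells, since T cells also express several of them. Of the 13 measured, 0 passed limma. Before adjustment (p under 0.05) 1 was higher and 1 lower, against 2.94% and 2.34% of all genes. With the block 3 were higher and 2 lower, against 6.34% and 7.37%. The one with the smallest p was Cd80, the CTLA-4 and CD28 ligand, at 107 ± 41.5 in Tc1 and 34.7 ± 3.60 in Tc9 (-1.24 ± 0.30, adjusted p = 0.244; -0.82 and -1.66 within the numbers). It lay below the negative control percentile on all 4 arrays. Outside the rule for named genes, Cd274, encoding PD-L1, measured 966 and 825 (-0.23, adjusted p = 1.00), and Tnfrsf14, encoding HVEM, 558 and 788 (0.47, adjusted p = 0.953). The list's median was -0.007, and 6 of the 13 were below background on all 4 arrays.

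Other inhibitory receptors had a median of 0.05, with genes on both sides of 0. Of 11 measured, 0 passed limma. Before adjustment (p under 0.05) 2 were higher and 1 lower, against 2.94% and 2.34% of all genes. With the block 4 were higher and 2 lower, against 6.34% and 7.37%. Lilrb4a, a leukocyte immunoglobulin-like receptor with inhibitory tyrosine motifs, had the smallest p, at 466 and 126 (-1.74 ± 0.29, adjusted p = 0.0682; -1.64 and -1.84 within the numbers). It was above the negative control percentile on 2 arrays, and both Tc9 arrays lay below it. The receptor nearest the threshold on the higher side, named outside the rule, was Cd96, a TIGIT relative that also binds PVR, at 1225 and 2395 (0.95 ± 0.16, adjusted p = 0.0770; 0.84 and 1.06 within the numbers). Both differences were larger in size than that of any member. On all 4 arrays 6 of the 11 were below background.

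Costimulatory receptors, the activating counterparts, had a median of -0.19. Of 9 measured, all above background on every array, 0 passed limma. Before adjustment (p under 0.05) 0 were higher and 1 lower, against 2.94% and 2.34% of all genes. With the block 0 were higher and 3 lower, against 6.34% and 7.37%. Among genes above background on all 4 arrays, the block called 13.1% higher and 1010 of 6354 lower. The smallest p was that of Tnfrsf9, encoding 4-1BB, a survival receptor of activated CD8 T cells, at 5390 ± 56.2 in Tc1 and 3888 ± 267 in Tc9 (-0.47 ± 0.11, adjusted p = 0.225; -0.41 and -0.53 within the numbers). Cd226, the activating partner opposed by TIGIT and named outside the rule, measured 1383 and 1514 (0.13, adjusted p = 1.00).

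Among 16 measured signalling partners of the receptors, phosphatases, kinases and adaptors, 0 passed limma. Before adjustment (p under 0.05) 2 were higher and 1 lower, against 2.94% and 2.34% of all genes. With the block 5 were higher and 1 lower, against 6.34% and 7.37%. Sh2d1a, the adaptor SAP of the SLAM family receptors, had the smallest p, at 292 and 118 (-1.24 ± 0.27, adjusted p = 0.188; -0.98 and -1.49 within the numbers). Both of its Tc9 arrays lay below the negative control percentile. The phosphatase genes of PD-1 signalling, named outside the rule, were close to level: Ptpn11, encoding SHP-2, measured 275 and 245 (-0.15, adjusted p = 1.00) and Ptpn6, encoding SHP-1, 2279 and 2203 (-0.05, adjusted p = 1.00). The median of the list was 0.08.

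**Figure D4:**
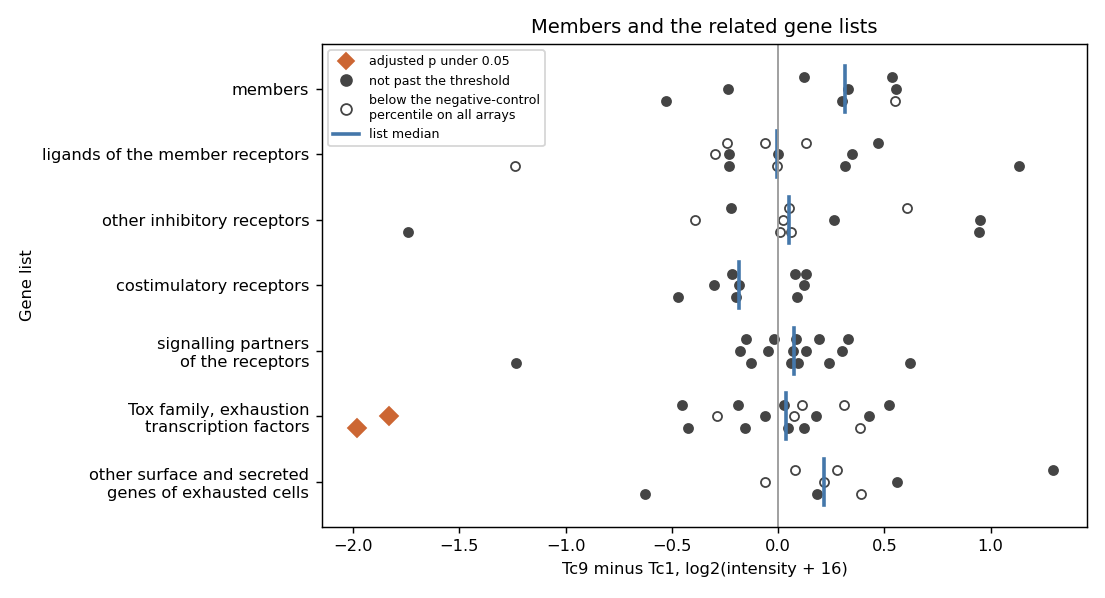
Tc9 minus Tc1 on the log2(intensity + 16) scale (x axis) for the members and 6 related gene lists (rows); each point is a gene, orange diamonds are past the threshold, open points lie below the negative control percentile on all 4 arrays and blue bars are list medians. The 2 diamonds are Eomes and Tbx21, at -1.98 and -1.83; no member lies beyond 0.56 on either side of 0.

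Of 18 measured transcription factors of the Tox family and of exhausted cells, 2 fell and 0 rose, against 0.179% and 0.385% of all genes. Before adjustment (p under 0.05) 2 were higher and 4 lower, against 2.94% and 2.34% of all genes. With the block 3 were higher and 4 lower, against 6.34% and 7.37%. The 2 past the adjusted threshold were the T-box factors Eomes (1050 to 254) and Tbx21 (609 to 160), with log2 changes of -1.98 ± 0.15 (limma adjusted p = 0.00383) and -1.83 ± 0.22 (0.0168), and both lost the call with the values as deposited (1.00 for each), and Tbx21 also without the intensity trend (0.0603). T-bet, from Tbx21, is known as a repressor of Pdcd1, and EOMES marks exhausted cells with much PD-1. Beside those falls Tox differed by 0.33, and Nfatc1, encoding a calcium-driven activator of Pdcd1 and named outside the rule, by 0.03 (1075 and 1101, adjusted p = 1.00). A link between these factors and the Pdcd1 difference, which did not pass, was not tested. The list's median was 0.04, and background was not exceeded on any array by 5 of the 18. Tbx21 exceeded background on 3 arrays, but not on the Tc9 array numbered 2.

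Of 9 measured other surface and secreted genes of exhausted cells, 0 passed limma. Before adjustment (p under 0.05) 2 were higher and 1 lower, against 2.94% and 2.34% of all genes. With the block 3 were higher and 1 lower, against 6.34% and 7.37%. Cxcr6, a chemokine receptor of tissue-resident and exhausted cells, had the smallest p, at 55.3 ± 9.32 and 158 ± 15.5 (1.29 ± 0.25, adjusted p = 0.114; 1.33 and 1.25 within the numbers). It was above the negative control percentile on 1 of the 4 arrays. The median was 0.22, and 5 of the 9 were below background on all 4 arrays.

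No member reached a log2 difference of 1 within both numbers, where 0.872% of all genes did, so the rule for naming the genes nearest in pattern gave none.

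**Figure D5:**
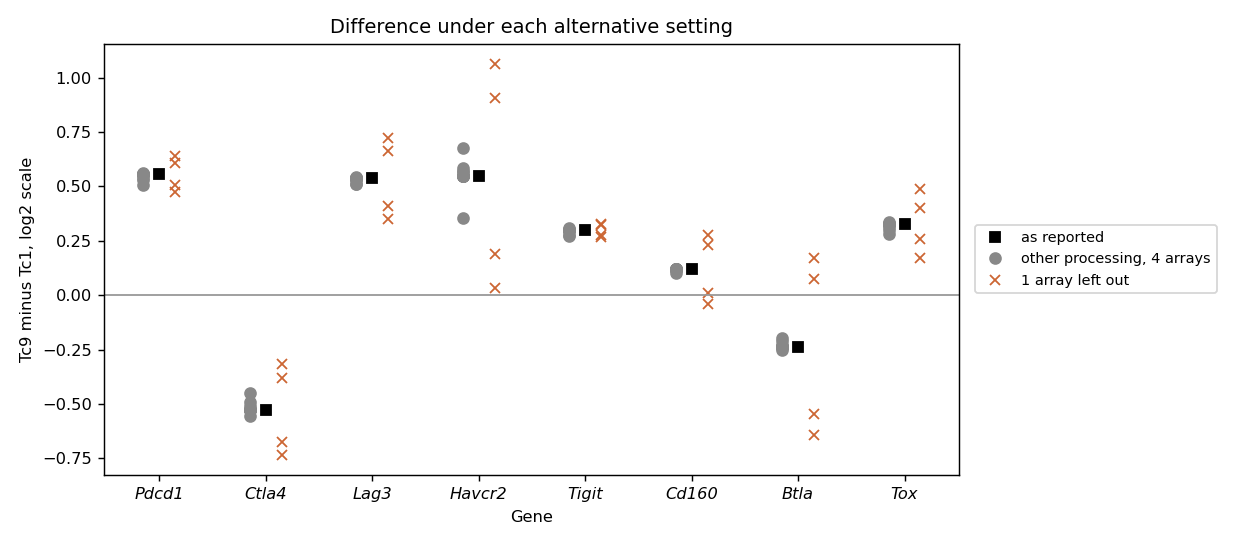
Tc9 minus Tc1 (y axis, log2 scale) of each member as reported (black squares), under other processing of all 4 arrays (grey circles) and with 1 array left out (orange crosses). Pdcd1, Lag3, Tigit and Tox stay above 0 and Ctla4 below it throughout, while Havcr2 reaches 0.03 and Cd160 and Btla cross 0 when an array is left out.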

How the data were processed

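The authors deposited a table of 28846 probe sets by 4 arrays, with a linear intensity in each cell, from RNA labelled by the Affymetrix protocol per the labels. The sources used here do not give the background correction, summarization, software or genome build. The 6640 control probe sets were left out. Among the other 22206, the platform annotation named 19572, and 2634 were unnamed here. For 55 genes with several probe sets, that with the highest mean was kept.

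Intensities were quantile normalized, 16 was added and log2 taken. Groups and numbers came from sample titles. Tc9 minus Tc1 was fitted with limma 3.58.1 under R 4.3.3 (lmFit and trended eBayes, 2-sided, 2 residual and 5.08 prior degrees of freedom) on all genes at once, with Benjamini-Hochberg adjustment over 19505 genes and a threshold of 0.05. The fit was tested on simulated data with independent noise on each array. It recovered 0 of 50 genes changed by a log2 of 0.5 and 0 of 50 changed by 1. At 2 it recovered 28 of 50, and at 3 it recovered 34 of 50. The simulation dealt the spreads out to genes at random, so it did not keep the tie of spread to intensity that the fit uses. Its recovery therefore does not give that of the members. No member differed by more than 0.56. With their own SE in the fit without a block, Pdcd1 would have needed 0.89 and Lag3 1.20 to pass. A deviation shared by same-numbered arrays was not simulated. The number of arrays limits the precision.

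The members and the 6 related lists (76 of 82 genes measured, the rest not analysed here) were chosen with earlier results of these data known. Named genes were the members, the Tox relatives, and of each list the genes past the threshold or, with none, that with the smallest p. Alternatives were the values as deposited, median centring, normalization with controls, pseudocounts of 1 and 64, a filter at the 25th percentile, no trend, a robust fit, the block, a minimum log2 change of 1, the mean of probe sets, and each array left out. RefSeq tables (GRCm38.p6) gave promoters and gene neighbours only.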

Additional observations from a re-analysis of the deposited data

How the results depend on the processing

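No member passed under 14 of the 16 alternatives. The exceptions were the replicate block, with 6 members called, and the replicate block without the intensity trend, with 4. Among the 14, the minimum log2 change of 1 could only remove calls. The mean of probe sets left the members' values as they were, since each has 1 probe set. Same-numbered arrays deviated together from their group means, at r = 0.729 across all genes and 0.840 across genes above background on all 4 arrays. Genes are not independent replicates, and this is a hint from the data and not from the design. With any 1 array left out, 1 array stood for its group. Those fits had 1 residual and infinite prior degrees of freedom, so their p-values rest on other genes of like intensity. The fit on the values as deposited had infinite prior degrees of freedom too. Over all genes 110 were called, against 16 with the values as deposited, 52 with median centring, 56 without the intensity trend, 2674 with the block, 1426 with the block and no trend, and 186 to 274 without 1 array. The members that changed sign were Cd160, from -0.040 to 0.279 over the fits that left out 1 array (lowest without the Tc9 array numbered 1), and Btla, from -0.642 to 0.169 (0.169 without that array and 0.073 without the Tc1 array numbered 2). The other 6 kept their direction under all 16. The filter, the missing trend, the robust fit and both block fits leave a member's difference unchanged. So do the minimum change and the mean of probe sets, so only the other alternatives could test the direction. The adjusted p of Pdcd1 without the block ran from 0.149 to 1.00. The 2 arrays per group limit what could be called. So does the gap between the numbers, which the fit without a block counts as spread. For Havcr2, signal under the negative control percentile limits the measurement as well. The cause of these dependences was not tested.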
